A study of Homo sapiens with 6 samples.

Results

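The 3 K562 arrays of a 6-array series on silencing of the transcription factor ZFX are described here. They were chosen by their label alone, and are 1 control array, 1 array of cells carrying the ZFX hairpin 381 and 1 array of cells carrying the ZFX hairpin 1012. The labels give both hairpins the same number, 1, and they are told apart here by these identifiers. K562 is a human chronic myeloid leukemia line with erythroid features, driven by the BCR-ABL1 fusion kinase. Silencing used lentiviral short hairpin RNA vectors, after which fluorescent cells were sorted out and grown like the parental line. Each array was hybridised with equal amounts of RNA from 3 replicate cultures pooled before labelling, so an array is 1 sample and the spread between cultures was not measured. A control hairpin vector appears in the protocol, but the label of the control array says normal cells, and which applies is not settled. If the control cells carried no vector, an effect of infection and sorting and an effect of silencing cannot be told apart. The other 3 arrays are the same design in the T cell leukemia line Jurkat.

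ZFX is an X-linked zinc finger protein that binds near the start of many genes with CpG-rich promoters and acts mostly as an activator of transcription. It is known as a factor that keeps embryonic and hematopoietic stem cells renewing themselves, and it has been studied for its part in the growth of leukemia cells. K562 cells make embryonic and fetal globins and little adult beta globin, and they can be pushed towards erythroid or megakaryocytic differentiation. The question the K562 arrays address is which transcripts of this line differ when ZFX is silenced.

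Values are MAS5 signals, a linear probe set brightness scaled to a 2% trimmed mean of about 500 on each array. Where 3 signals follow a gene, they are those of the control, of hairpin 381 and of hairpin 1012, in that order. A log2 difference is the difference of log2(signal + 16.9) to the control array, which understates the change of dim genes. A standard error (SE) comes from a limma fit of all 6 arrays, in which the spread is that between the 2 hairpins within each line. A gene is called well above background where its K562 control signal was at least 169, which is 10 times the pseudocount of 16.9. This held for 8817 of the 11785 genes tested. MED15P9 lay just inside this limit with a control signal of 169.5 and SEC24B-AS1 just outside it with 169.2.

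The erythroid identity of the line was borne out by the bright erythroid genes. In the control, epsilon globin (HBE1) had a signal of 30384, zeta globin (HBZ) 24148 and the transferrin receptor (TFRC) 32913, and the erythroid transcription factors KLF1 and GATA1 had 1597 and 710. HBE1, HBZ and KLF1 read 32.6, 4.82 and 82.3 in Jurkat control cells, while TFRC, which growing cells of many kinds carry, read 21667 there. Of 6 erythroid markers measured by a probe set of their own, 5 were well above background in K562 control cells, the exception being ALAS2 at 65.2. Of 10 T lineage markers 8 stayed below the limit on every K562 array. The exceptions were CD3D, at 1612, 1489 and 956, and TRBC1, at 360, 353 and 211. The T cell kinase LCK, at 15328 in Jurkat control cells, read 32.7, 5.40 and 5.28. Summed signals of the T lineage list were 2293, 2207 and 1387 on the 3 K562 arrays, those of 8 myeloid markers 1857, 2197 and 1855, those of 6 megakaryocyte markers 1092, 1155 and 1537, and those of 4 B lineage markers 253, 304 and 369. The myeloid sum came mostly from lysozyme (LYZ), at 1676, 1974 and 1601, and the megakaryocyte sum mostly from TUBB1, at 640, 680 and 1113. Signals of the 6 erythroid markers summed to 89817, 75943 and 66334, mostly from HBE1, HBZ and TFRC. In RNA of a whole culture, fewer cells of a type and less RNA per cell cannot be told apart.

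ZFX was lower on both silenced arrays on each of its 4 probe sets. The brightest read 719, 236 and 289, and the next brightest 403, 163 and 130. The remaining pair read 165, 35.7 and 50.4, and 82.8, 46.7 and 16.4. The silenced signals were therefore between 19.8% and 56.4% of control, and no silenced array reached its control value on any probe set. For the brightest probe set the log2 difference was -1.40 ± 0.51 (SE; limma adjusted p = 0.948), so even the targeted gene did not pass the test. Its paralog ZNF711 read 505, 753 and 596, a log2 difference of 0.40 ± 0.25.

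No direction of the K562 comparison held a gene with a limma p below 0.05 after adjustment (0% called, 0 of 11785 genes). An unadjusted p below 0.05 was reached by 275 genes with higher signal (2.33%) and by 304 with lower signal (2.58%), and the smallest adjusted p, shared by 107 genes, was 0.898. The median 95% interval of a gene well above background reached 0.63 to each side of its log2 difference. What follows describes sizes and sides of control, and no gene named below passed the test over all genes. Lists were counted, not tested.

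Among the 8817 genes well above background, 2633 were higher than control with both hairpins (29.9%) and 3007 were lower with both (34.1%), while 3177 lay on opposite sides. A difference of 2-fold or more, in the same direction with both hairpins, was seen upward for 8 genes (0.0907%) and downward for 26 (0.295%). Both hairpins were set against the same control array, and that array also decided which genes were well above background. Judged instead on the mean of the 3 K562 arrays, a choice made after seeing the data, the counts were 12 higher and 17 lower. Over all genes tested, dim ones included, they were 65 higher (0.552%) and 67 lower (0.569%).

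**Figure D1:**
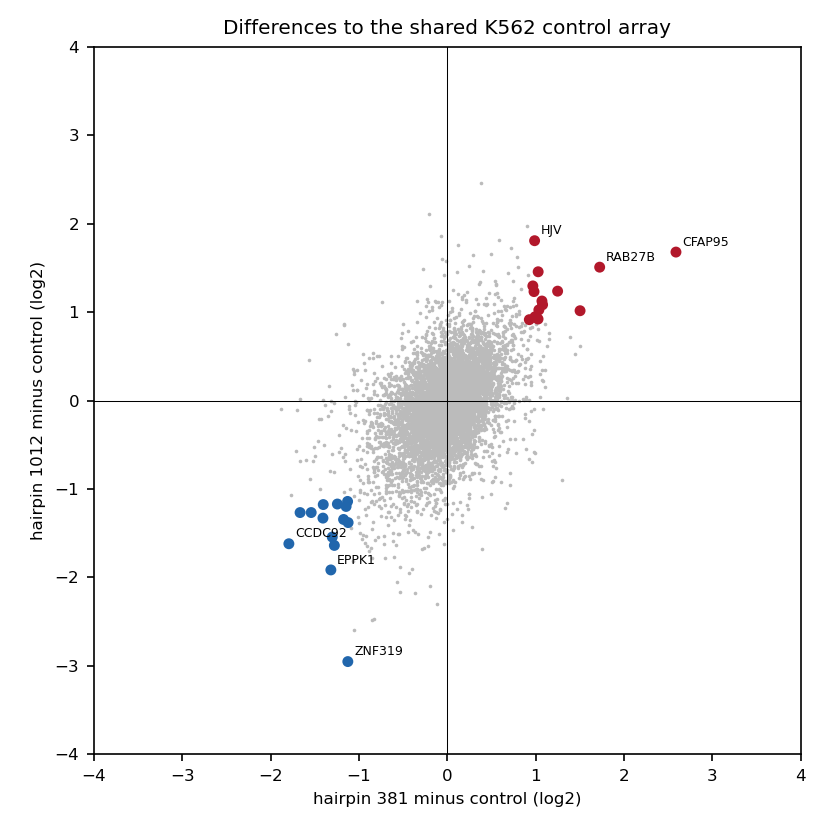
Each grey point is 1 of the 8817 genes well above background, placed by its log2 difference to the K562 control array with hairpin 381 (x axis) and with hairpin 1012 (y axis). The 14 named genes of each direction are drawn in red (higher) and blue (lower), and CFAP95, at 2.59 and 1.68, and ZNF319, at -1.13 and -2.95, lie farthest out.

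The size of the differences varied with the hairpin. Over these genes the SD of the log2 difference to control was 0.34 for hairpin 381 and 0.42 for hairpin 1012, and the SD of the difference between the hairpins was 0.41. Taken singly, hairpin 381 put 32 genes 2-fold or more above control and 87 below it, and hairpin 1012 put 92 above and 205 below. The silenced arrays thus lay about as far from each other as from the control. The poly-A spike-in probe sets, which read RNA added before labelling, differed from control by a median log2 value of 0.34 with hairpin 381 and 0.69 with hairpin 1012. The signal ratio of the 3′ over the 5′ probe set of beta actin was 11.1, 8.61 and 7.54, in the same order of arrays, and that of GAPDH was 1.36, 1.28 and 1.22. These values moved with the arrays, and their part in the results was not tested.

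Genes lower with both hairpins were ranked by the weaker of their 2 differences, and the first 14 included ZFX itself at the seventh place. For CCDC92, SDC3, TMEM52, CIBAR1, SYNGR1 and ZNF319 only the control signal reached the limit for genes well above background. Both silenced signals fell below it. The control array alone set that limit, so the places of these genes in the ranking depend on this choice. CCDC92, a coiled-coil protein, came first, at 218, 50.8 and 59.3. Its log2 difference was -1.71 ± 0.29, or 3.26-fold lower (limma adjusted p = 0.898). The desmosomal plakophilin PKP3 read 1019, 374 and 395, and the plakin family cytolinker EPPK1 read 758, 294 and 188. Both were below control on each silenced array, by log2 values of -1.37 ± 0.32 and -1.62 ± 0.48, and the second EPPK1 probe set read 642, 257 and 136. The actin nucleator SPIRE1 read 895, 328 and 386, a log2 difference of -1.29 ± 0.28, and its other 2 probe sets were also lower with both hairpins. The PDZ and LIM domain protein PDLIM4, which binds the actin cytoskeleton, read 702, 312 and 309. Its second probe set, at 68.6, 180 and 29.9, was above control with hairpin 381 and below it with hairpin 1012. The heparan sulfate proteoglycan SDC3 read 184, 64.5 and 51.9.

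The brightest member was HBZ, the embryonic alpha-like globin. Its signals were 24148, 11085 and 9262, both silenced arrays lying well under the control and close to each other. The log2 difference was -1.25 ± 0.32, or 2.38-fold lower (limma adjusted p = 0.898), and the 95% interval reached 0.73 to each side. B3GNT5, which starts the lacto-series of glycolipids, read 3486, 1428 and 1108, a log2 difference of -1.46 ± 0.32. Its second probe set, dim in the control at 90.2, read 101 and 156 with the hairpins and so was higher, not lower. The other genes lower with both hairpins were ADCK2, a kinase-like protein of mitochondria, the synaptic vesicle protein SYNGR1, the BAR domain protein CIBAR1, the transmembrane protein TMEM52 and the zinc finger protein ZNF319. ADCK2 read 695, 284 and 299, and its other 2 probe sets were lower as well. SYNGR1 read 300.3, 83.1 and 115, while its second probe set, at 107, 112 and 20.5, lay on both sides of control. ZNF319 read 218, 90.8 and 13.4, the widest gap between the hairpins in this set. HBZ held the last of the 14 places, and IGKV1OR2-118, just outside, had differences of -1.15 and -1.11.

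Where a promoter window was listed, it was searched for AGGCCT, the core of the known ZFX motif, which reads the same on both strands. The window covers the 250 bases before and 50 after the start of a gene in RefSeq (GRCh38.p14). Of the 13 lower genes other than ZFX 8 had a window and 3 of these held the motif, and of the 14 higher genes 9 had a window and 0 held it. Over all genes well above background with a window 14% held it, against 15.7% of those lower and 12.8% of those higher with both hairpins. The 3 windows are shown because they belong to the named genes with the motif, which stands in capitals. SYNGR1 lies at chr22:39363897-39364196 on the plus strand, TMEM52 at chr1:1919230-1919529 on the minus strand and ZNF319 at chr16:58000623-58000922 on the minus strand.
SYNGR1: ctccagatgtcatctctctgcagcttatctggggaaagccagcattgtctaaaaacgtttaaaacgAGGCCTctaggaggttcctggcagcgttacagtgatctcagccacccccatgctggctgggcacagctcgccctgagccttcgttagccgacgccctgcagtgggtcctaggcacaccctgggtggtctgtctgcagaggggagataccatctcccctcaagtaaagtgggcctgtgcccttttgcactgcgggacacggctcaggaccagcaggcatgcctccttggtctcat
TMEM52: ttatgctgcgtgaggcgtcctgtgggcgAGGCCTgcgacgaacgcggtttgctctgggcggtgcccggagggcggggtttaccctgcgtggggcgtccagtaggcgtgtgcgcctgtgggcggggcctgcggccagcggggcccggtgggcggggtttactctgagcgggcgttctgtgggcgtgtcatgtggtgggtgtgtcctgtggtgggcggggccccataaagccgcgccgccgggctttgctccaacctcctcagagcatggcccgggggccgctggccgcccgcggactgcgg
ZNF319: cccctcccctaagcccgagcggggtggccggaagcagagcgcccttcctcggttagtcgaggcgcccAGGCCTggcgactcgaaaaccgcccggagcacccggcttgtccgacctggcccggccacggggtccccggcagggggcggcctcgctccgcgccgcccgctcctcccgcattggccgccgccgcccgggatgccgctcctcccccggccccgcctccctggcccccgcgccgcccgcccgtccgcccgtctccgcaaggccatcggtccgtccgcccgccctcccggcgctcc
The motif began at position -184 from the start site in SYNGR1, -222 in TMEM52 and -183 in ZNF319. A match describes these letters and is not a measured binding site. The windows differed in base composition. CG pairs numbered 9 in SYNGR1, 33 in TMEM52 and 44 in ZNF319, against a median of 14 over all windows listed.

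Genes higher with both hairpins were ranked in the same way. CFAP95, a cilia and flagella associated protein, read 237, 1509 and 796. Its log2 difference was 2.13 ± 0.47, or 4.39-fold (limma adjusted p = 0.898), and its second probe set read 139, 470 and 228. RAB27B, a Rab GTPase of secretory granules and platelet precursors, read 982, 3283 and 2826, a log2 difference of 1.62 ± 0.43. Its second probe set was dimmer, at 64.3, 126 and 115, and also higher on both silenced arrays. The retrovirus-restricting cytidine deaminase APOBEC3G read 294, 721 and 716. The silenced arrays were nearly level, and the log2 difference was 1.24 ± 0.28.

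ACSM3, a medium-chain acyl-CoA synthetase, read 1208, 2569 and 2580 on one probe set and 861, 2469 and 1945 on the other. NNMT, which methylates nicotinamide, read 999, 2117 and 2200 on one and 340, 817 and 874 on the other. Each of these 4 probe sets was higher on both silenced arrays than in the control, and the log2 differences of the brighter ones were 1.08 ± 0.30 and 1.10 ± 0.42. The adhesion protein AMIGO2 was higher, at 459, 953 and 1290, as were the lectin CLEC2B, at 479, 1388 and 987, and the bone morphogenetic protein (BMP) co-receptor HJV, at 234, 482 and 864. HJV was the least even of these 3 between the hairpins, at log2 differences of 0.99 and 1.81. FAM111A, a protease that binds the replication clamp, was the brightest of the rest at 1123, 2233 and 2662. It had the narrowest interval of the group, with a log2 difference of 1.11 ± 0.22. The zinc finger protein ZNF680, RWDD2B, the ubiquitin ligase component DET1, TRABD and ANKRD55 had log2 differences between 0.92 and 1.13. A second DET1 probe set read 98.0, 79.9 and 108 and so lay on both sides of control. ANKRD55 held the last place at 0.93 and 0.92, and CFAP210, just outside, had 0.91 and 1.42.

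**Figure D2:**
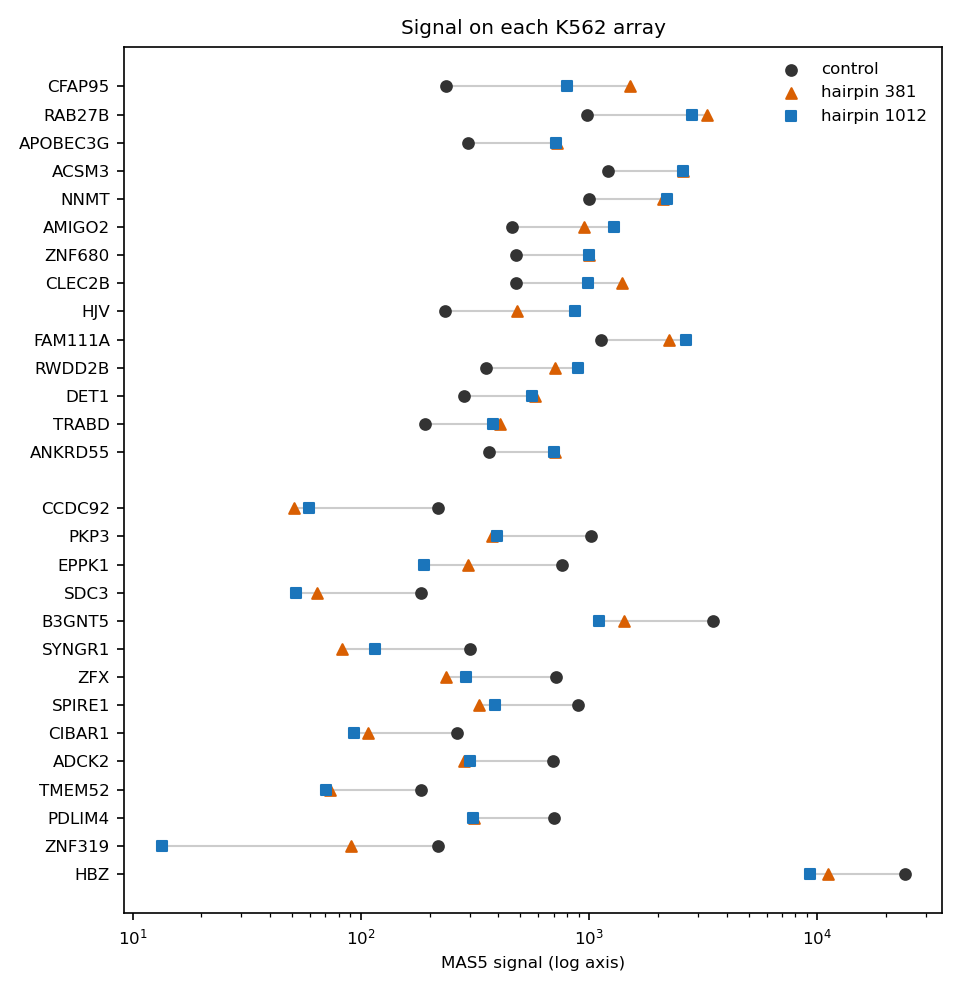
MAS5 signal (log axis) of the 14 genes highest and the 14 lowest by the weaker hairpin, on the control array (black circle), the hairpin 381 array (orange triangle) and the hairpin 1012 array (blue square), 1 array each. HBZ lies far to the right of the others, with signals of 24148, 11085 and 9262, and ZNF319 shows the widest gap between the hairpins, at 90.8 and 13.4.

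Other probe sets of the same genes gave a second reading of the same RNA. Of the 7 other probe sets kept for the higher genes 6 lay above control with both hairpins, and of the 9 kept for the lower genes 6 lay below. Over all genes well above background on the same side with both hairpins, the shares were 49.5% of 2725 other probe sets for higher genes and 47.8% of 3362 for lower genes.

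The Jurkat arrays share no sample with the K562 arrays but carry the same 2 hairpins, so silencing of ZFX and another effect of a hairpin cannot be told apart by them. Of the 14 higher genes 10 were also above the Jurkat control with both hairpins, against 42.4% of all genes higher in K562, and 31.2% of the 8817 genes whichever way they went in K562. Of the 13 lower genes other than ZFX 8 were also below the Jurkat control with both hairpins, against 45.5% and 33.3%. Only 7 of the 14 higher and 4 of the 13 lower genes were well above background on all 3 Jurkat arrays, so part of these counts rests on dim signals. CCDC92, SPIRE1, ADCK2 and CIBAR1 were lower in both lines and well above background on each Jurkat array, with Jurkat signals of 1040, 616 and 691 for CCDC92 and of 654, 364 and 406 for SPIRE1. ZNF680, CLEC2B, FAM111A, RWDD2B and DET1 were higher in both, as was AMIGO2 at Jurkat signals of 169, 371 and 237. Smaller than 1 SE were the Jurkat log2 differences of DET1 (0.04 ± 0.27), FAM111A (0.16 ± 0.22) and ADCK2 (-0.23 ± 0.25). CCDC92 had a log2 difference of -1.71 ± 0.29 in K562 and -0.66 ± 0.29 in Jurkat cells, and the difference between these, -1.05 ± 0.41, did not pass (limma adjusted p = 1.00).

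Other genes lay on the opposite side of control in Jurkat cells. ACSM3 read 34.8, 7.81 and 13.0 in Jurkat cells, where it was dim, and PDLIM4 read 2.49, 59.4 and 36.1. The K562 minus Jurkat difference was 2.01 ± 0.43 for ACSM3 and -2.85 ± 0.54 for PDLIM4. PKP3 and SDC3 were above the Jurkat control with both hairpins, at Jurkat signals of 78.2, 90.6 and 126 and of 28.2, 52.5 and 122. For this difference between the lines 0 genes passed in limma, 289 had an unadjusted p below 0.05, and the smallest adjusted p was 1.00. An effect in K562 cells was therefore not shown to differ from that in Jurkat cells for any gene.

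**Figure D3:**
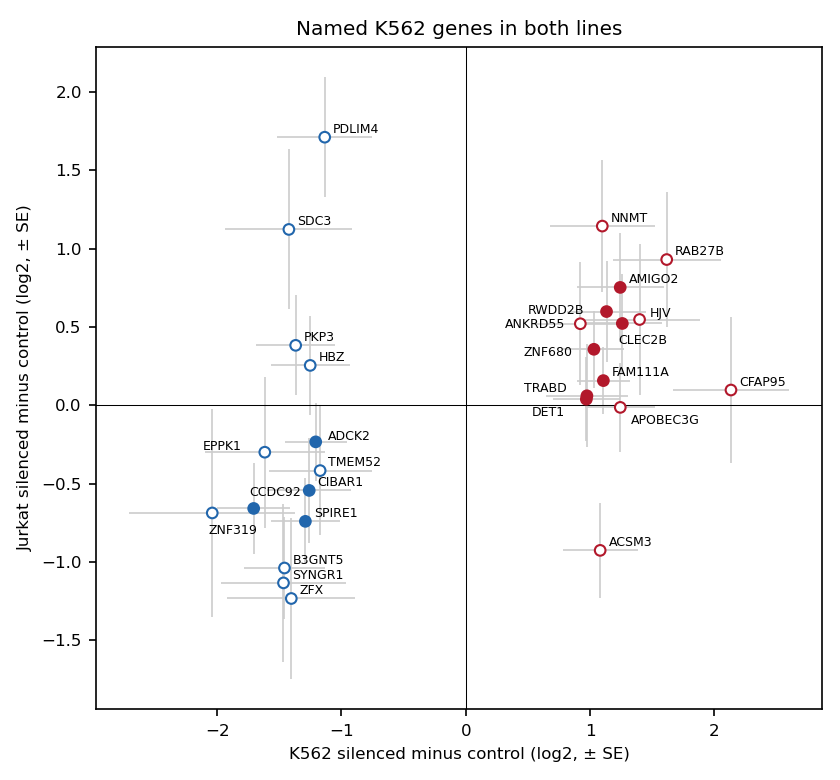
Log2 difference of silenced to control cells in K562 (x axis) and Jurkat (y axis) for the named genes, with bars of 1 SE from the limma fit (2 silenced arrays and 1 control array in each line). Filled points were well above background on all 3 Jurkat arrays, and PDLIM4, at -1.13 and far above 0 in Jurkat, and ACSM3, at 1.08 and below 0 in Jurkat, are open points.

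Erythroid genes are the ones K562 cells are known for, and their globins lay on different sides of control. HBZ was lower, as above, while adult beta globin (HBB) read 625, 1799 and 969. Delta globin (HBD) read 2386, 6520 and 3448. HBB and HBD were thus higher on both silenced arrays and highest with hairpin 381, with log2 differences of 1.06 ± 0.41 and 0.99 ± 0.40. Both other HBB probe sets were also higher. The sequences of HBB and HBD are close, so signal of one may be read by the other. HBE1 read 30384, 30115 and 28326, a log2 difference of -0.06 ± 0.28, and the alpha globin chaperone AHSP read 584, 394 and 416. Probe sets that read both gamma or both alpha globin genes carry several symbols and are not named here.

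Of 15 genes of heme synthesis and breakdown 10 were lower with both hairpins and 1 was higher, with a median log2 value of -0.15. Over all 11785 genes 33.7% were lower and 31.1% higher with both hairpins, and the median was -0.02. These shares belong beside each list count below as well. ABCB10, a mitochondrial transporter that works with the iron importer, read 7747, 4799 and 4788. The iron importer itself, mitoferrin (SLC25A37), read 3041, 2138 and 2205, and 7 of its 8 other probe sets were lower as well. Ferrochelatase (FECH), which inserts the iron, read 4076, 2587 and 3473, and biliverdin reductase (BLVRA) 3928, 2469 and 2815. The log2 differences of these 4 genes lay between -0.69 ± 0.20 for ABCB10 and -0.44 ± 0.24 for FECH. The exception, the second enzyme of the pathway ALAD, read 305, 417 and 460, and its other probe set was lower with both hairpins. Of 13 iron genes 7 were lower and 4 higher, with TFRC at 32913, 32454 and 26868, the iron exporter SLC40A1 at 3779, 3235 and 1288 and the iron-sensing aconitase ACO1 at 1012, 783 and 725.

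Of 21 hematopoietic transcription factors 10 were lower with both hairpins and 6 higher (median -0.08). Of the 18 well above background in the control, 10 were lower and 3 higher. The control array that set this limit is also the reference of the differences. Over all 8817 genes past the limit 34.1% were lower and 29.9% higher with both hairpins. LMO2, the bridging protein of the erythroid complex, read 5382, 3545 and 3464, and its partner TAL1 read 4801, 4046 and 3176. NFE2, which drives globin and platelet genes, read 2043, 1389 and 1104, and the lymphoid and erythroid regulator IKZF1 read 3162, 2266 and 2443. Each was below control on both silenced arrays, with log2 differences of -0.62 ± 0.27, -0.42 ± 0.26, -0.71 ± 0.59 and -0.42 ± 0.22. GATA1 lay on both sides of control, at 710, 735 and 613, and KLF1 read 1597, 1510 and 1229. Of 12 red cell membrane genes 5 were lower and 2 higher, with the glucose transporter SLC2A1 at 2041, 1484 and 1831. Of the 5 megakaryocyte genes tested 3 were higher, 1 was lower and 1 lay on both sides. The higher ones were RAB27B, the platelet integrin ITGA2B at 192, 292 and 223 and the platelet tubulin TUBB1 at 640, 680 and 1113, and the lower one was the integrin subunit ITGB3, dim at 63.2, 57.9 and 58.8. The platelet glycoproteins GP1BA, at 89.7, 46.6 and 40.7, and GP9, at 52.2, 8.35 and 25.9, were dim, lower and not kept by the filter on low signals. The marker PF4, at 55.5, 69.6 and 75.2, was also dim and not kept, but was higher with both hairpins.

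**Figure D4:**
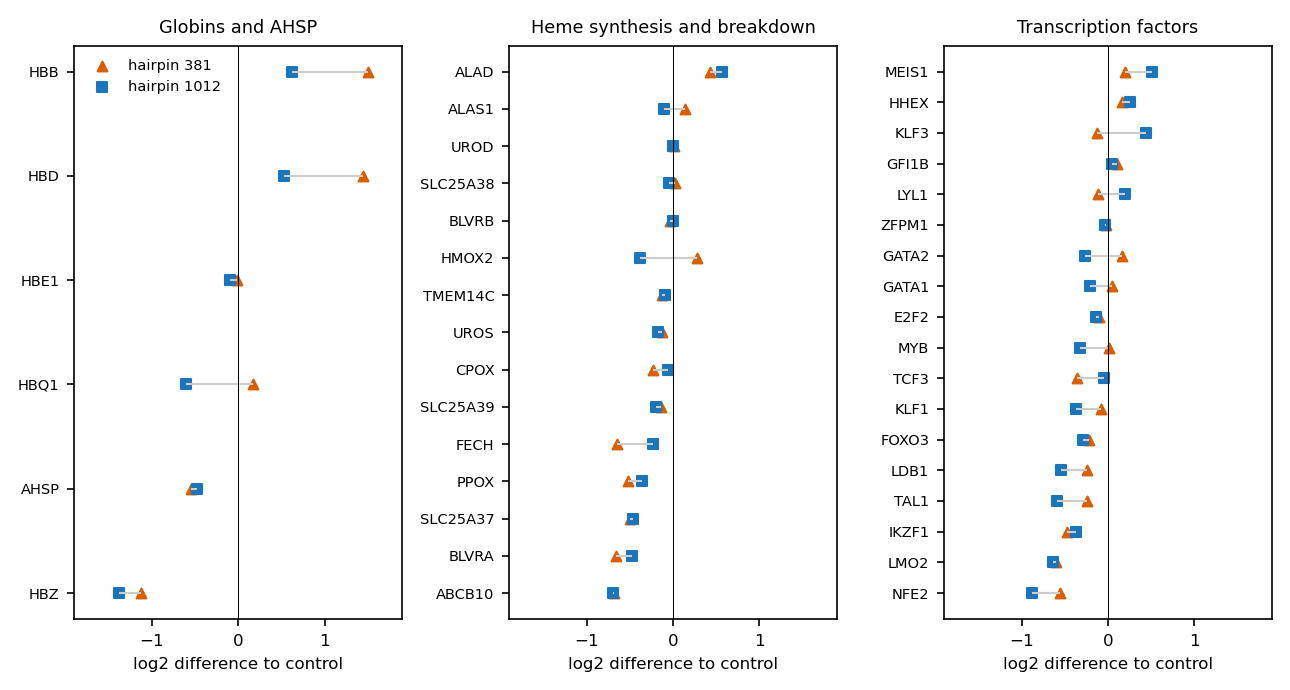
Log2 difference to the K562 control array with hairpin 381 (orange triangle) and hairpin 1012 (blue square), 1 array each, for globins, heme genes and hematopoietic transcription factors well above background in the control. HBB and HBD lie to the right of 0 with both hairpins and HBZ to the left, and 10 of the 15 heme genes and 10 of the 18 transcription factors lie to the left of 0 with both. The control array both set the limit for the genes drawn and is the reference of the differences.

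In the signalling network of the BCR-ABL1 fusion, which K562 cells depend on, 11 of 19 genes were lower with both hairpins and 6 higher (median -0.17). ABL1 read 3346, 2226 and 2670, and BCR read 342, 252 and 277. Whether these probe sets also read the fusion transcript was not examined. Both were lower on each silenced array, by -0.45 ± 0.24 and -0.35 ± 0.26, and both other BCR probe sets were lower as well. STAT5B, a transcription factor that the fusion activates, was higher at 1290, 1565 and 2086, and the STAT5 target CISH was higher at 768, 1129 and 1793. Both other CISH probe sets were higher too, and its log2 difference was 0.87 ± 0.33. Of the 22 STAT5 and MAP kinase response genes 8 were higher and 6 lower, the lower ones including the kinase PIM3 at 1633, 1266 and 1097 and the immediate early gene EGR1 at 3893, 2442 and 3193.

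Cell cycle genes are given by phase. Of 34 genes of the G1/S transition and DNA replication 16 were lower with both hairpins and 7 higher (median -0.06), with the helicase subunit MCM5 at 2143, 1536 and 1734 and the primase subunit PRIM1, in the other direction, at 4580, 5671 and 7345. Of 32 genes of G2 and mitosis 12 were higher, 1 was lower and 19 lay on opposite sides (median 0.05), against 31.1% higher and 33.7% lower over all genes. Among them the spindle protein TPX2 read 2324, 2721 and 2936 and the kinesin KIF20A 2031, 2250 and 2439, and the lower one was the ubiquitin-conjugating enzyme UBE2C at 176, 93.7 and 97.2. The differences of TPX2 and KIF20A, 0.28 ± 0.21 and 0.20 ± 0.24, were smaller than their 95% intervals, which reached 0.49 and 0.55 to each side. Of 9 D cyclins, their kinases and inhibitors 5 were higher and 1 lower (median 0.24). The inhibitor CDKN2D, dim in the control, read 54.1, 134 and 196, CDK4 read 4102, 5393 and 4859, and the inhibitor CDKN1B 2017, 2175 and 2607. In the E2F and retinoblastoma families 5 of 13 were higher and 3 lower. E2F1 read 46.0, 185 and 289, its control signal being below the limit of 169, while its other probe set lay on both sides of control. E2F7, a repressor of the family, read 1704, 2027 and 2812.

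Of 27 genes of the ATF4 pathway and the unfolded protein response, which cells switch on under amino acid or endoplasmic reticulum stress, 15 were higher with both hairpins and 3 lower. ATF4 read 11788, 14991 and 18924. Its target ATF3 read 450, 751 and 1527, and the stress factor DDIT3 read 1005, 1290 and 2527. All 3 were higher with both hairpins and highest with 1012, and ATF4 had a log2 difference of 0.51 ± 0.17. The endoplasmic reticulum chaperone HSP90B1 read 2638, 3308 and 3807, and the co-chaperone DNAJC3, one of the 3 lower, 1749, 1377 and 1227. The list median was 0.04 with hairpin 381 and 0.56 with hairpin 1012, the array with the higher poly-A spike-in signals (0.69 against 0.34). Of 17 aminoacyl-tRNA synthetases, many of which ATF4 controls, 8 were higher and 1 lower (median 0.09), with AARS1 at 3111, 4170 and 5585.

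Of 15 genes of the BCL2 family, which decides on cell death, 8 were lower, 1 was higher and 6 lay on opposite sides. The list median was -0.05, against -0.02 over all genes, of which 33.7% were lower and 31.1% higher with both hairpins. The death-promoting BID read 4022, 2833 and 3127, and both its other probe sets were lower. BIK, another promoter of death, was the higher one, dim at 12.8, 50.2 and 55.8. Of 18 cholesterol synthesis genes 9 were lower and 2 higher (median -0.08). HMGCS1, an early enzyme of the pathway, read 3093, 2349 and 1672, INSIG1, which holds back its transcriptional activator, read 9872, 7453 and 6202, and PMVK, in the other direction, read 671, 1303 and 1124. INSIG1 was lower on each of its 3 probe sets, with a log2 difference of -0.54 ± 0.17.

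Glycosyltransferases build the sugar chains of surface proteins and lipids. Of 19 genes of galactose addition and related glycan extension 11 were lower with both hairpins and 3 higher (median -0.21). B4GALT1, which adds galactose to N-glycans, read 810, 399 and 426, and B4GALT5, which makes lactosylceramide, read 2142, 1535 and 837. B4GALT1 was at about the same level with both hairpins and B4GALT5 lower with 1012, with log2 differences of -0.95 ± 0.29 and -0.91 ± 0.38. B3GNT5, described above, acts on the product of the latter. The list was chosen because of earlier reports on ZFX and these enzymes, possibly from the same arrays, and is not independent evidence of a direction.

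Of 21 Wnt and Notch pathway genes 13 were lower and 5 higher (median -0.26). The receptor NOTCH1 read 814, 634 and 348, its target and inhibitor NRARP 1257, 989 and 604, and the Wnt signal transducer DVL2 997, 733 and 755. NOTCH1 and NRARP were lowest with hairpin 1012 and DVL2 was level between the hairpins. In the TGF-beta and BMP pathway 9 of 21 were lower and 8 higher (median -0.12). The extracellular BMP-binding protein TWSG1 read 4233, 2263 and 2282, a log2 difference of -0.89 ± 0.21, the signal transducer SMAD5 read 1887, 1382 and 785, and the BMP receptor BMPR2 225, 111 and 174. Of 24 chromatin genes 9 were higher and 8 lower, and among the lower were the DNA demethylase TET1 at 3625, 2542 and 1916, the Polycomb subunit CBX2 at 801, 531 and 574 and UHRF1, which maintains DNA methylation, at 8286, 5310 and 6489.

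Adhesion genes were divided. Of 25 integrin, adhesion and motility genes 9 were higher and 7 lower, with vimentin (VIM), an intermediate filament protein, at 8667, 16159 and 12981 and the integrin ITGAV at 2097, 2822 and 3398. The second VIM probe set lay on both sides of control. ICAM2, a ligand of leukocyte integrins, was lower at 2587, 1944 and 1448.

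Lists of basic cell machinery had medians close to 0, with members on either side. The 21 cytosolic ribosomal protein genes had a median log2 value of -0.01, with 2 higher, 4 lower and 15 on opposite sides. The 28 respiratory chain genes had a median of 0.02, with 6 higher and 7 lower, and the 19 heat shock and chaperonin genes -0.04, with 4 higher and 6 lower. The 19 genes of MYC and ribosome biogenesis had a median of -0.02 (0.11 with hairpin 381 and -0.18 with hairpin 1012), and 14 of them lay on opposite sides of control with the hairpins. POLR1A, the large subunit of the polymerase that makes ribosomal RNA, was lower on each of its 3 probe sets, at 508, 277 and 296 on the brightest.

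**Figure D5:**
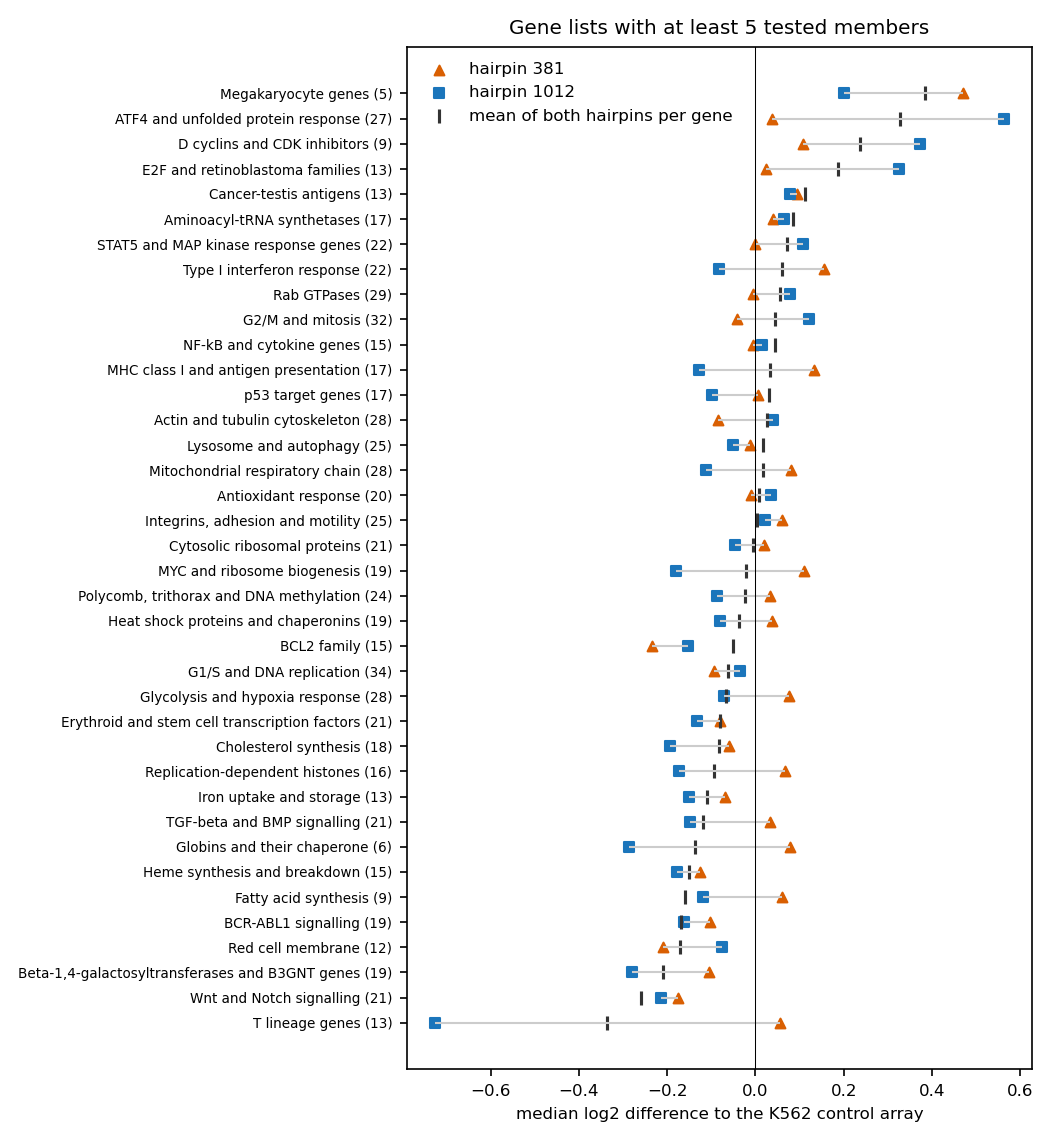
Median log2 difference to the K562 control array over the tested members (number in parentheses) of each of the 38 gene lists with at least 5 tested members, with hairpin 381 (orange triangle), with hairpin 1012 (blue square) and as the mean of both per gene (black bar). The widest gaps between the hairpins are those of the T lineage list, whose members are mostly dim in K562 cells, and of the ATF4 list, at 0.04 and 0.56.

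Of the 897 genes on the 41 lists 723 were tested and 0 passed an adjusted p of 0.05 in limma. All differences rest on 1 control array, and a p that misses the threshold does not show that a gene kept its level. In simulated data of this design the fit called 8.96% of the genes with a true 2-fold change, 69% at 4-fold and 93.3% at 8-fold. Each simulated data set mixed changes of these sizes over 200 genes, which eases the adjusted threshold for all of them. With fewer or smaller changes the shares called would be lower.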

How the data were processed

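RNA of the 3 K562 and 3 Jurkat samples was read on Affymetrix arrays of 54675 probe sets and 1 colour. The deposited values are linear intensities made by the authors with MAS5, per the submitters' processing notes, whose version is not given in the sources used here. Each array's 2% trimmed mean was about 500. Of the probe sets 41097 had 1 gene symbol in the platform annotation, 1801 several and 11777 none. The analysis used log2(signal + 16.9), with the 25th percentile of all values as pseudocount. After removal of 62 array controls, probe sets with a mean log2 value above the median over all probe sets, a signal of 54.4, were kept (27306, of which 22310 had 1 symbol). The kept probe set with the highest mean stood for each gene, giving 11785 genes.

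All 6 arrays were fitted as 4 groups with limma 3.58.1 in R 4.3.3, using its eBayes step with trend (2 residual degrees of freedom, median prior 5.92). P-values are two-sided, adjusted by Benjamini-Hochberg over all genes, and reflect how far arrays of different hairpins differ; the control is assumed to vary like them. The genes named are ZFX, the 14 in each direction with the largest weaker difference among genes well above background and on the same side with both hairpins, and, of each list described, up to 6 members by the same order and the line's markers. The arrays were chosen by their label, while the list members, the rule and the lists were chosen with earlier results of these data known. The fit was tested on simulated data with 200 changed genes in 5 data sets, in which 2.74% of calls were false. The simulated spread was drawn from the fit itself, with the control varying like the silenced arrays. That share therefore does not test the assumption about the control. Alternatives covered the pseudocount, filter, normalization, probe set rule, arrays in the fit, the hairpin as a block, the trend and leaving out each silenced array.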

Additional observations from a re-analysis of the deposited data

Results flagged for a closer look

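The poly-A spike-in probe sets, which belong to no gene of the comparison, read higher on both silenced K562 arrays than on the control, by a median log2 value of 0.34 with hairpin 381 and 0.69 with hairpin 1012. The median signals of these 24 probe sets were 192 in the control, 279 and 345. The 18 hybridisation spike-in probe sets, added after labelling, differed by 0.03 and -0.02.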

How the results depend on the processing

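The count of genes past the threshold was 0 in K562 cells under each alternative run, with a smallest adjusted p between 0.0692 and 0.999, and 0 for the difference between the lines. With the hairpin as a replicate block it was 0 for both, with a smallest adjusted p of 0.245 in K562 cells; the difference between the hairpins correlated across genes between the lines with r = 0.21, and with a pair of numbers this does not establish pairing. Leaving out a silenced array gave 0 genes and a smallest adjusted p between 0.0692 and 0.267. Without one K562 hairpin, genes on the same side with both could not be counted. The 404 values of the named genes under the alternatives kept their sign, but the choice of these genes had largely fixed this outcome. They were picked because their differences had equal sign on both silenced arrays. With an unchanged probe set, leaving out either K562 hairpin or changing the pseudocount cannot turn such a sign. The count is therefore little evidence that these differences are robust. Among list members, ALAD turned to -0.14 and E2F7 to -0.17 with the mean of probe sets. GATA1 was at -0.24 with the filter and probe set taken over the K562 arrays, and at 0.048 without the K562 hairpin 1012 array. Genes 2-fold or more from control on both silenced arrays numbered 9 higher and 12 lower with a pseudocount 4 times larger, 127 and 114 with one 4 times smaller, 254 and 338 without a filter and 11 and 13 with a 75th percentile filter, and 42 were lower with the filter taken over the K562 arrays. Of those well above background, 5 were higher and 11 lower with the larger pseudocount, 4 and 10 with the stricter filter, and 17 lower when judged on the mean of the K562 arrays. Of 570 list medians under the alternatives 39 changed sign, in 24 of 38 lists. Precision is limited by the number of arrays.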

Other observations

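Some gene groups of K562 cells are not described above. Of 13 cancer-testis antigen genes, which K562 cells express and most normal tissues do not, 6 were higher with both hairpins and 0 lower (median log2 value 0.11). The other 7 lay on opposite sides, and over all genes 31.1% were higher and 33.7% lower with both hairpins. With signals in the order of control, hairpin 381 and hairpin 1012, SSX1 read 3179, 4389 and 4458 and PRAME 15273, 18198 and 16246. Of 29 Rab GTPase genes and their partners, which steer vesicle traffic, 12 were higher and 7 lower (median 0.06). Besides RAB27B, RAB13 read 4257, 6003 and 6265, and the early endosome gene RAB5A 7115, 9063 and 9090, with its other 2 probe sets higher as well. RAB20 was lower, at 459, 314 and 314.

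Among 28 genes of glycolysis and the hypoxia response 8 were higher and 10 lower (median -0.07). The neuronal-type glucose transporter SLC2A3 read 6446, 10848 and 10720, and both its other probe sets were higher. NDRG1, a gene known for its response to hypoxia, read 145, 66.7 and 62.7, and the glycolytic regulator PFKFB4 305, 225 and 169. Of 22 interferon response genes 8 were higher and 6 lower (median 0.06, and -0.095 with the filter taken over the K562 arrays). Of the 5 well above background 0 were higher and 3 lower (median -0.33), among them IFITM1 at 23791, 18762 and 16668. The control array that set this limit is also the reference of the differences. Over all 8817 genes past the limit 29.9% were higher and 34.1% lower with both hairpins.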
